A study of Danio rerio with 370 samples.

Results

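The cells described here were single cells of the adult zebrafish forebrain that a cell sorter placed in the newborn neuron (NBN) gate, because they carried little mCherry and were positive for GFP. Of 169 NBN gate cells that were sequenced, 164 passed the quality filters, out of 264 cells that passed among the 370 of the whole series. Members were chosen by their gate and by the filters alone. A cell had to exceed 4.5 in log10 reads, to lie from 2.7 to 3.9 in log10 genes (those with more than 1 read), and to have under 50% of reads on the 50 genes with the most reads, and under 20% of reads on mitochondrial genes. Of the 5 cells that failed, 2 failed on reads, 2 on genes, 3 on the 50 leading genes and 1 on mitochondrial reads. Fish 1 to 6 gave 27, 28, 28, 28, 26 and 27 of the cells that passed.

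All cells came from adult *her4.1:mcherry;elavl3:GFP* fish, in which the promoter of the radial glia gene *her4.1* drives mCherry and that of the neuronal gene *elavl3* drives GFP. Both transgenes are carried by every group, and the ages of the fish were not given in the sources used here. Each telencephalon was dissociated together with the anterior diencephalon, so the gate can hold cells of both regions. The radial glia (RG) gate, with high mCherry and no GFP, gave 73 cells that passed and came from the same 6 fish, so it served as the comparison. The mature neuron (MN) gate, with GFP and no mCherry, gave 27 cells, all of fish 6, and was not tested against. The number of fish rests on the cell names, which number 5 fish in batch bfx855, and on the study's count of 6, by which the cells of batch bfx811 were taken as fish 6, so that this fish and its batch cannot be told apart. The deposited fish label disagrees, with 4 values in all that follow the plates, and it was used as an alternative. Reporter proteins outlast their transcripts, so the gate records what protein a cell still held and not which of these genes it was transcribing.

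In the adult zebrafish forebrain, radial glia line the ventricle and act as neural stem cells, and their neuronal daughters move a short distance into the brain before they mature. A newborn neuron builds an axon and dendrites, and its tubulins, stathmins and actin-binding proteins are made in large amounts for that work. Proneural transcription factors such as the Neurod family act early in this course, whereas proteins of the synapse and of the excitable membrane accumulate later. In SMART-seq2, cDNA of single cells is sequenced along its full length, and a gene that is expressed in bursts or at a low level is often missed in a given cell.

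The NBN gate cells held a median of 270898 reads on genes (38724 to 569318) and showed a median of 1634 genes with at least 1 read (585 to 9047). A single cell of fish 6 had 9047 genes from 178725 reads, and the next cells had 4419 and 4166. Genes per cell, as the median of each fish, were 1624 ± 274 for NBN and 1555 ± 264 for RG cells (SD, n = 6 fish), a difference of 69.3 with an exact two-sided permutation p of 0.6875 that turned to -54.6 without fish 3. Reads, genes, leading genes and mitochondrial reads were each bounded by the filters, so these are values of filtered cells. The 50 leading genes took 29.6% ± 2.56 of reads of NBN and 35.1% ± 4.31 of RG cells, with RG cells reaching up to the limit of the filter, and the difference is given without a test. Shares are of reads and not of molecules, since no molecular identifiers were used, and intervals cover counting error only. In what follows, a level is given as CPM, the reads of a gene scaled to the same total of reads on genes in every cell or sum. Longer transcripts give more reads, so differences in level are read between gates and fish within 1 gene. Where genes are binned, ranked or chosen by CPM, transcript length is not taken out.

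The label of the gate was checked against *ELAVL3*, *eno2* and *STMN4*. *ELAVL3*, an RNA-binding protein of young and mature neurons whose promoter drives the GFP of the sort, had a read in 157 of 164 cells. Its level, summed over the cells of a fish, was 1257 CPM at the lowest, 1521 at the median and 1978 at the highest of 6 fish in the NBN gate, and 0, 0.569 and 288 CPM in the RG gate, where 8 of 73 cells had a read. The gates did not overlap, yet the difference missed the threshold of the test across all genes (log2 fold change 4.74, SE 1.54, adjusted p = 0.0720 by edgeR's quasi-likelihood test). When the fish entered as a block, it passed (10.3 on the log2 scale, adjusted p = 0.000374), as it did without fish 6 (adjusted p = 0.00929). *eno2*, the neuronal enolase of glycolysis, stood at 94.4, 413 and 676 CPM in 83 cells and at 0 in every RG sum, at least 2378-fold higher over a floor of 3 counts across the RG gate (0.161 CPM). *STMN4*, a stathmin that regulates microtubules, is listed as a pair of copies, of which ENSDARG00000030106 was read in 134 cells at 1306, 1513 and 1774 CPM against 0, 0.190 and 5.32 CPM in the RG gate (adjusted p = 1.2e-05). The second copy, ENSDARG00000043932, was read in 53 cells and in no RG cell. These markers set the gate apart from the RG gate but not from the MN gate, where *ELAVL3* was read in 26 of 27 cells, *STMN4* (ENSDARG00000030106) in 26 and *eno2* in 22. They thus set the gate apart from radial glia but do not mark every cell as a neuron, since the study found *elavl3* in its oligodendrocyte precursor cluster too. Nor do they show that the cells were newborn, for which the study's evidence included an EdU pulse-chase of sorted cells.

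Markers of mature neurons differed in how widely they were read in the gate, and 2 of the 7 listed were read in most cells. Of 7 such genes tested, 6 were higher than in the RG gate, beside 6.66% of all 8393 genes tested. *SNAP25* (ENSDARG00000020609), a protein of vesicle fusion, was read in 129 cells, and the vesicle proteins *SYT1* in 111 and *SV2A* in 53. They were read in 27, 22 and 23 of the 27 MN cells. *NRGN* and the kinase gene *CAMK2A*, which the study also took as markers of mature neurons, reached 100 CPM in 32 and 25 NBN cells. Markers of cells other than neurons were mostly rare. Of 13 radial glia markers tested, 11 were lower in the NBN gate, beside 1.81% of all genes tested. The listed markers took 0.146% to 0.463% of NBN reads against 2.47% to 6.28% of RG reads. *her4.1*, whose promoter drives the mCherry of the sort, was read in 12 NBN cells, but *MDK*, also on that list, in 118. Of the 14 listed genes of dividing cells, 3 (*TOP2A*, *CCNB1* and *CDK1*) were at 0 and *PCNA* led with 34 cells. Oligodendrocyte precursor and myelin genes were read in at most 19 cells, endothelial genes in 12, microglial genes in 5, ependymal genes in 4 and erythrocyte genes in 2. The part that such cells had in the results below was not tested, except where cells with *olig1*, *OLIG2* or *SOX10* are counted.

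Few genes were shared by nearly all cells. Of 20485 genes with a read in at least 1 NBN gate cell, 24 (0.117%) had a read in at least 95% of the cells. *malat1*, *marcksl1b*, *zgc:158463* and a gene without a symbol were read in all 164. At 90% of cells the count was 48, at 99% it was 5, and after each cell was thinned to 20000 reads it was 15. A pair of cells, thinned in this way, shared a median of 357 genes. Leaving out 1 fish at a time moved the count between 18 and 31.

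The shared genes were of a few kinds. *malat1*, a long nuclear RNA, stood at 19392 CPM in the lowest, 26397 in the middle and 85935 in the highest fish, with fish 6 well above the other 5, and its level was 13314 to 52234 in the RG gate (log2 fold change 0.83, SE 0.47, adjusted p = 0.416, blocked by fish 0.00381). 4 of the 24 were genes of the mitochondrial genome (*MT-CO1*, *MT-CO2*, *MT-CO3* and *MT-ATP6*), which encode subunits of the respiratory chain and of ATP synthase. The creatine kinase *CKB* and the mitochondrial ADP/ATP carrier *SLC25A5*, both of energy supply, were also shared, as were the ubiquitin genes *UBB* and *ubb*, the elongation factor *eef1a1l1* and the initiation factor *EIF1B*. *EIF1B* had a mean of only 251 CPM, and was read in 64.0% of cells after thinning and in 74.1% of cells of the lowest fish. No ribosomal protein gene was among the 24.

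Of the 24 shared genes, all were tested and 4 (*STMN1*, *tuba1c*, *marcksl1b* and *ptmaa*) were called higher in the NBN gate and none lower, beside 6.66% of 8393 tested genes called higher and 1.81% called lower. Since the 24 were chosen for reads in NBN cells, a call of higher is favoured by the choice, and nothing is read from the count. *STMN1*, a stathmin that destabilises microtubules, stood at 4992, 7125 and 9215 CPM in the lowest, middle and highest fish of the NBN gate and at 305, 720 and 1170 in the RG gate. These ranges were far apart in all 6 fish (log2 fold change 3.48, SE 0.40, adjusted p = 2.15e-05). *tuba1c*, an alpha-tubulin, stood at 850, 2300 and 3026 CPM against 117, 175 and 477 (log2 fold change 3.56, SE 0.49, adjusted p = 0.000109). *marcksl1b*, which ties actin to the membrane, stood at 2981, 3903 and 4581 CPM against 822, 1188 and 1754 (1.93, SE 0.29, adjusted p = 0.000313). *ptmaa*, a prothymosin of the nucleus, stood at 1940, 2252 and 2485 CPM against 408, 841 and 1630 (1.54, SE 0.34, adjusted p = 0.00522, and 0.0573 without fish 5). None of the 4 overlapped between gates. *actb2*, a cytoplasmic actin in 162 of 164 cells, was at 4331 to 11565 CPM against 4330 to 7939 and did not pass (0.82, SE 0.27, adjusted p = 0.0822).

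Genes of the heat shock response were shared by cells of both gates. *hsp70l*, an inducible chaperone, was read in 160 NBN cells at 7035, 15448 and 21844 CPM in the lowest, middle and highest fish, and in 67 of 73 RG cells at 7453, 11757 and 25571 CPM. These ranges overlapped almost wholly (log2 fold change 0.45, SE 0.31, adjusted p = 0.551). *hsp70.1*, *hsp70.3*, *HSPA2* and the chaperone *HSP90AB1* were shared too. Together the 5 genes took a median of 4.15% of a cell's reads in the NBN gate (0.127% to 13.8%) and 3.48% in the RG gate, and the medians of the fish ran from 1.88% to 5.39% and from 1.47% to 6.77%. The *hsp70* copies are near-identical, as are *UBB* and *ubb*, and a count of uniquely aligned reads can split such copies unevenly, so their single values are uncertain.

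**Figure D1:**
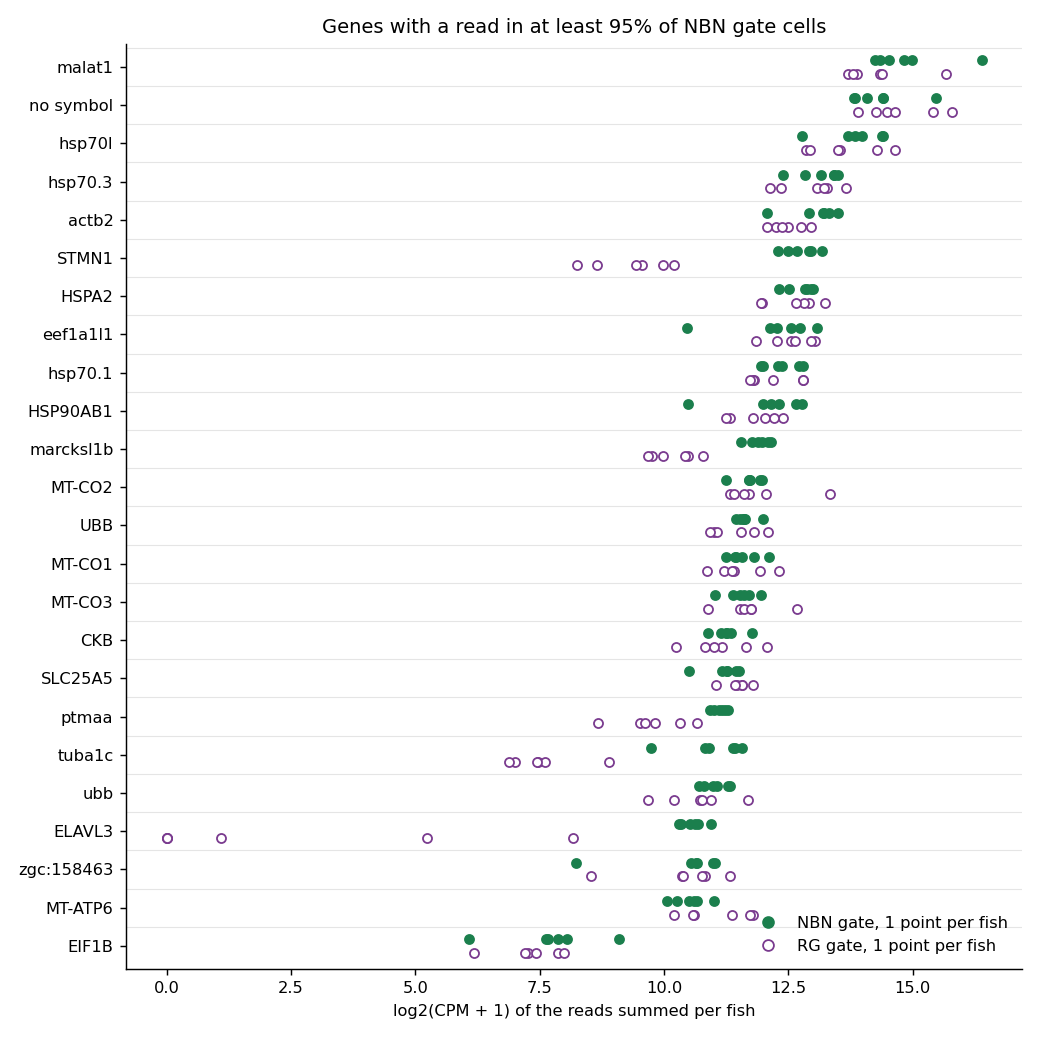
Level of the 24 genes with a read in at least 95% of NBN gate cells, on a log2(CPM + 1) axis, with 1 filled point per fish for the NBN gate and 1 open point per fish for the RG gate. *STMN1*, *tuba1c*, *marcksl1b*, *ptmaa* and *ELAVL3* are the genes whose NBN points all lie to the right of their RG points, and for *malat1* the point of fish 6 lies apart at 85935 CPM.

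The share of cells in which a gene was read rose with its level, but genes of equal level differed widely. Of 40 genes with a mean of 2000 CPM or more, the median was read in 94.8% of cells, and 20 were shared. Of 183 genes between 500 and 1000 CPM, the median was read in 70.7% of cells (47.2% to 82.8% from the 10th to the 90th percentile) and none was shared. Of 935 genes between 100 and 200 CPM, the median was read in 27.4%. The 13 mitochondrial genes were read in 52.4% to 99.4% of cells, and 4 of them were shared and 2 bimodal.

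**Figure D2:**
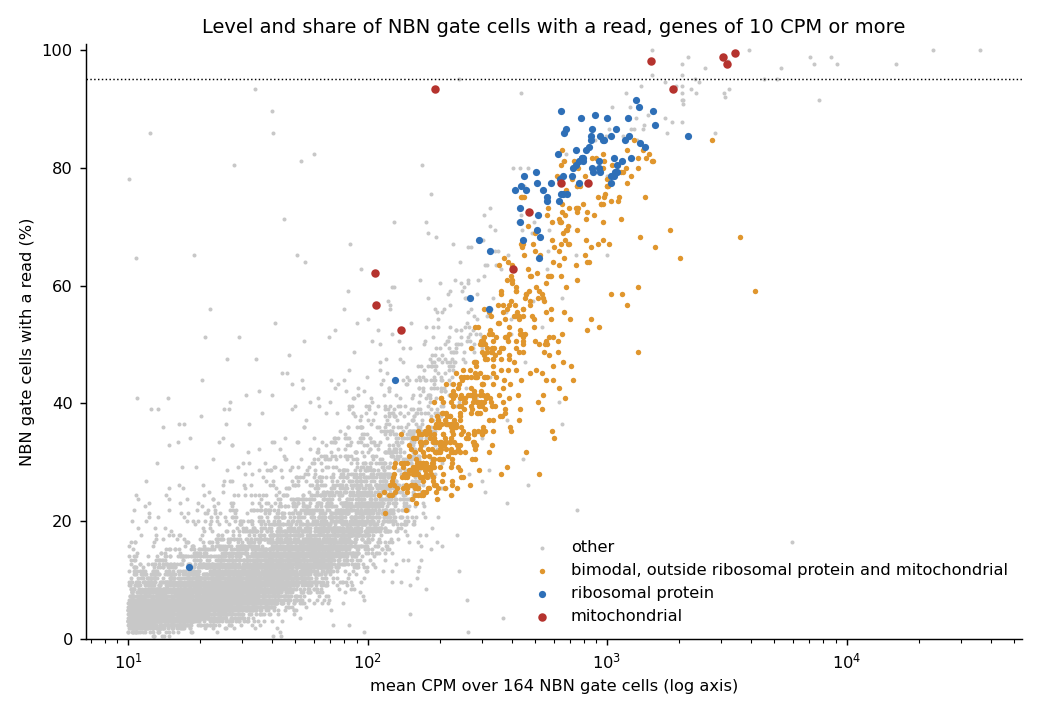
Share of the 164 NBN gate cells with a read against the mean CPM over these cells (log axis), for genes of at least 10 CPM, with mitochondrial, ribosomal protein and bimodal genes in colour and the dotted line at 95%. Ribosomal protein genes gather below the line with a median of 79.9% of cells, and the bimodal genes with the highest level, *tubb5* and *dnajb1b*, were read in 59.1% and 68.3%.

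Ribosomal protein genes, which every growing cell needs, were read in fewer NBN than RG cells over the gate as a whole. Of 83 such genes by symbol, 82 had a read, in a median of 79.9% and at most 91.5% of NBN cells. With cells thinned to 20000 reads, the median gene was read in 77.4% of NBN and 93.2% of RG cells, and none against 25 genes reached 95%. The lower share did not hold for each kind of NBN cell described below. In the *tubb5* kind the median gene was read in 96.4% of cells, and in the *MSI2* kind in 50.9%. By fish, the median was 96.3%, 64.3%, 92.9%, 67.9%, 88.5% and 55.6% in the NBN gate against 100%, 100%, 100%, 86.7%, 91.7% and 95.7% in the RG gate, lower in the NBN gate in 6 of 6 fish. Fish 1, 3 and 5 lay close to the RG gate, and fish 2, 4 and 6 far below it. Their share of reads, as the median of each fish, was 5.91% ± 3.89 for NBN and 10.9% ± 4.04 for RG cells (difference -5.02 points, lower in 5 of 6 fish, exact permutation p = 0.09375). In the test across all genes, 1 of 82 was higher and none lower in the NBN gate. Their median log2 fold change was -0.47, beside 0.69 over all genes tested.

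Many genes were instead bimodal, with a high level in some cells and no read in others. A gene was called on in a cell at 100 CPM or more. It was called bimodal if it was on in 20% to 80% of cells and in at least 2 cells of every fish, had a median of at least 500 CPM where on, and was read at under 100 CPM in at most 10% of cells. Most genes of a middle mean level met this rule, with 318 of 482 at 200 to 500 CPM, 156 of 183 at 500 to 1000 and 42 of 77 at 1000 to 2000. Of genes at 100 to 200 CPM 145 of 935 met it, and of those at 2000 CPM or more 4 of 40. Over all levels, 665 of 20485 genes (3.25%) were bimodal, 659 of them with a symbol and 51 of them ribosomal protein genes. Of these, 208 were on in more than 50% of cells. The count moved with the rule, to 276 with at most 5% of cells in between, to 95 with a median of at least 1000 CPM and to 1071 with one of 250 CPM, and leaving out 1 fish gave 593 to 706. All 665 were tested between the gates, where 121 were called higher and 11 lower, beside 6.66% and 1.81% of all genes. The rule looks at NBN cells alone and so favours genes that are higher there, and nothing is read from these counts.

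*tubb5*, a beta-tubulin, was the plainest of them. It was on in 85 cells with a median of 7850 CPM and had no read in 67, with 12 cells in between. *EBF3*, a transcription factor of neuronal differentiation, was on in 68 cells with a median of 2217 CPM, and *TBR1*, a T-box factor of glutamatergic neurons, in 91 with a median of 1673. *NEUROD1* was on in 54 cells (934 CPM). *eno2*, the pair of *STMN4* copies and *SNAP25* met the rule as well, so that 3 of the 4 listed marker genes of newborn neurons were bimodal within the gate. *STMN4* (ENSDARG00000030106) met it narrowly, since it was on in 131 cells (79.9%) and the limit was 80%. The 11 bimodal genes that were lower in the NBN gate held the immediate early genes *FOS* and *JUNB* (ENSDARG00000104773), the growth factor *MDK* (ENSDARG00000020708) and *BTG2*, an inhibitor of proliferation, of which the last pair missed the threshold once fish were blocked (adjusted p = 0.0970 and 0.0617), *MDK* also without fish 1, 2, 4 or 5 (0.0576, 0.0579, 0.0906 and 0.115) and *BTG2* without fish 2, 4 or 6 (0.0528, 0.112 and 0.0560). *FOS* stood at 820 ± 375 CPM in NBN and 6177 ± 2415 CPM in RG sums (SD, n = 6 fish, log2 fold change -2.73, SE 0.42, adjusted p = 0.000381 by edgeR).

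**Figure D3:**
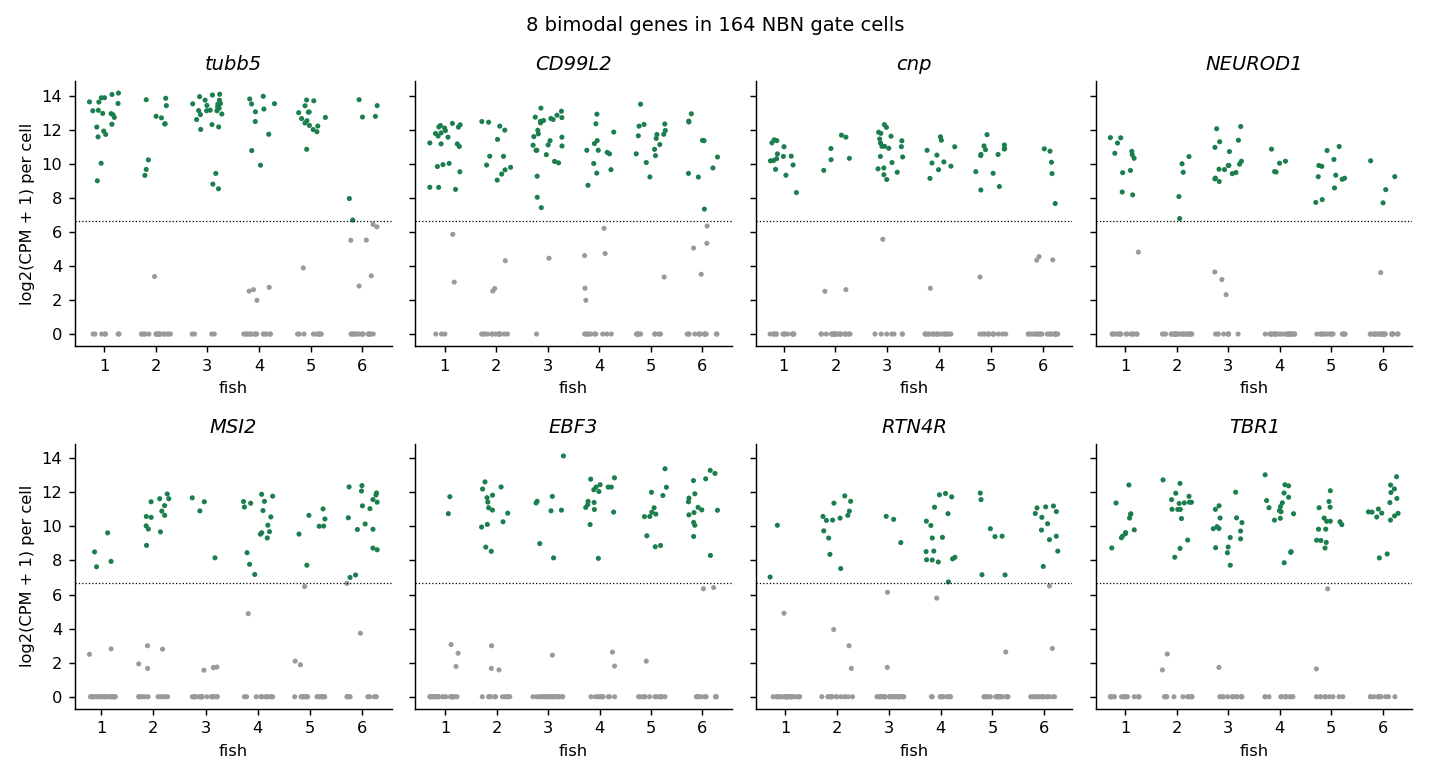
Level of 8 bimodal genes in each of the 164 NBN gate cells, on a log2(CPM + 1) axis by fish, with the dotted line at 100 CPM and cells at or above it in green. For *tubb5*, 85 cells lie above the line and most others at 0, and *MSI2* is on in 4 cells each of fish 1 and fish 3 but in 17 of fish 6.

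Whether bimodal genes go together was measured with phi, the correlation of their on calls over the 164 cells. It is 1 for genes that are on in the same cells and negative for genes that avoid each other. Cells share their fish, their depth and the batch, so phi is given as a description with no test. Over 220780 pairs it had a median of 0.06 and ran from -0.62 to 0.90, with 219 pairs at 0.5 or more and 26 at -0.5 or less. When genes were joined while their mean phi stayed at 0.5 or more, 8 groups of at least 3 genes formed and held 28 genes.

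**Figure D4:**
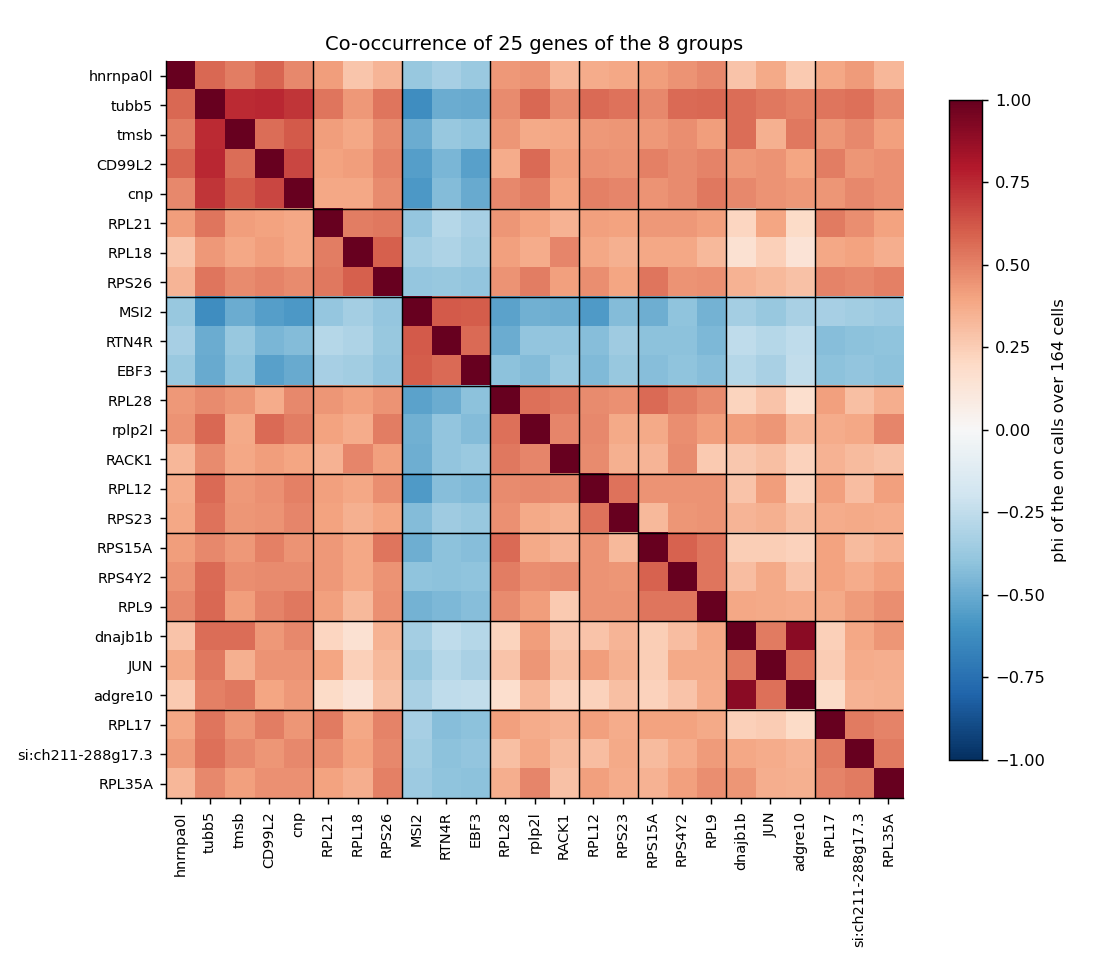
Phi of the on calls over 164 cells for 25 of the 28 genes of the 8 groups, from -1 (blue) to 1 (red), with black lines between groups. The *MSI2* group (here *MSI2*, *RTN4R* and *EBF3*) is red within itself and blue against every other group, while the *tubb5* group is red against the ribosomal protein groups as well.

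The first group held *tubb5*, the actin-binding thymosin *tmsb*, the membrane protein *CD99L2*, *cnp* (a nucleotide phosphodiesterase best known from myelin in mammals) and the RNA-binding protein *hnrnpa0l*. They were on in 85, 90, 98, 68 and 117 cells, and the mean phi of their pairs was 0.62. *tubb5* and *CD99L2* were both on in 81 cells and *tubb5* alone in 4 (phi 0.75, 0.68 within fish). *tubb5* and *tmsb* were both on in 77 cells (phi 0.74). Of the 68 cells with *cnp* on, 67 had *CD99L2* on. Within single fish, the mean phi of the group ran from 0.29 in fish 1 to 0.86 in fish 5. Its membership depended on which fish was left out. The group around *tubb5* kept 2 of the 5 genes without fish 3 and 3 without fish 5. It kept 4 without fish 1, 4 or 6 and all 5 without fish 2. Part of this followed from the rule for bimodal genes. *CD99L2* was read at under 100 CPM in 16 cells, close to the limit of 10% of cells. It passed that limit without fish 1, 3 or 5 and could not be joined. Genes that joined the group included *ZFPM2*, *MFSD2A*, *VIM*, *EEF1G* or *JUN*. At a phi of 0.4 it held 27 genes, 17 of them ribosomal protein genes, and with Spearman correlation 64 and 46.

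Members of this group differed in how far they set the NBN gate apart from the RG gate. *tubb5* stood at 1510, 4109 and 8119 CPM in the lowest, middle and highest fish, with fish 6 lowest and fish 3 highest, and at 0.543, 55.4 and 372 CPM in the RG gate. The gates did not overlap (log2 fold change 5.35, SE 1.2, adjusted p = 0.00597). *CD99L2* stood at 1134, 1745 and 3672 CPM against 46.1, 185 and 360 (3.61, SE 0.54, adjusted p = 0.000257). *cnp* stood at 190, 719 and 1598 CPM against 0, 89.9 and 200, ranges that overlapped only in their ends (3.35, SE 1.09, adjusted p = 0.0720). *tmsb* and *hnrnpa0l* overlapped between gates and did not pass without a block (adjusted p = 0.136 and 0.135 by edgeR). Within fish they differed, since *tmsb* was higher in the NBN gate in 6 of 6 fish and *hnrnpa0l* in 4. In cells with *tubb5* on, *ZFPM2*, *EEF1G*, *VIM*, *FSCN1*, *tubb2b* and *JUN* were often on too, a choice made after their values were seen (phi 0.61, 0.60, 0.55, 0.53, 0.50 and 0.53), and of 105 bimodal genes with a phi of at least 0.4 to *tubb5*, 44 were ribosomal protein genes.

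A further group held 4 genes, of which *MSI2* (a Musashi RNA-binding protein), *RTN4R* (the Nogo receptor of axons) and *EBF3* are described here. These were on in 61, 54 and 68 cells, and the mean phi of the group was 0.59. *MSI2* and *EBF3* were both on in 49 cells (phi 0.61), and *MSI2* and *RTN4R* in 43 (phi 0.62). *ATP1B1*, a subunit of the sodium pump, lay close to them (phi 0.47 to *MSI2*). Cells of the group came from every fish but unevenly, with *MSI2* on in 4, 13, 4, 16, 7 and 17 cells and *EBF3* in 2, 14, 8, 16, 12 and 16 cells of fish 1 to 6. Without fish 1, fish 4 or fish 6 no group with *MSI2* formed, although the mean phi of the pairs of the 4 genes was 0.58, 0.59 and 0.58. This followed from the rule for bimodal genes, as for *CD99L2*. *MSI2* was read below the on level in 16 cells, close to the limit of that rule. It passed the limit without fish 1, 4 or 6 and could not be joined. Whether the other genes of the group stayed joined is not given here. The mean phi of the group ran from 0.37 to 0.65 within single fish.

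The 3 described genes were higher in the NBN than in the RG gate. *EBF3* stood at 135, 1046 and 1835 CPM in the lowest, middle and highest fish and at 0, 0.653 and 35.9 CPM in the RG gate (log2 fold change 7.35, SE 1.42, adjusted p = 0.00248), with fish 1 lowest and fish 6 highest. *RTN4R* stood at 26.6, 424 and 613 CPM and at 0 in all RG sums, at least 2076-fold higher. *MSI2* was the exception in its stability. It was higher in 5 of 6 fish, at 41.9 to 1436 CPM against 0 to 272 (3.45, adjusted p = 0.0473), and missed the threshold without fish 2, 4, 5 or 6 (adjusted p = 0.137, 0.172, 0.120 and 0.254).

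These 2 groups avoided each other. The lowest phi of all pairs was that of *MSI2* and *tubb5* (-0.62, and -0.54 within fish), which were both on in 7 cells, *MSI2* alone in 54, *tubb5* alone in 78 and neither in 25. *MSI2* and *cnp* were both on in 3 cells (phi -0.57). Ribosomal protein genes stood against *MSI2* as well, with a phi of -0.58 for *RPL5* and -0.56 for *RPL12*. The second lowest pair joined *tubb5* with a gene without a symbol (-0.59). The mean phi between the groups was -0.44, and it was negative in each fish alone (-0.17 to -0.56). A pair of glycolytic genes, chosen after their values were seen, lay with *MSI2* and against *tubb5*: *ALDOC* (phi -0.54 to *tubb5*, 0.35 to *MSI2*) and *ENO1* (-0.50 and 0.33).

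Cells were then sorted by how many genes of each group were on. With at least 3 of the 5 genes of the *tubb5* group on and fewer than 2 of the other, 83 cells (50.6%, exact 95% interval 42.7% to 58.5%) formed the *tubb5* kind. With at least 2 of the 4 genes of the *MSI2* group on and fewer than 3 of the other, 53 cells (32.3%, 25.2% to 40.1%) formed the *MSI2* kind. Both intervals take the cells as independent and leave out the spread between fish, which is given below. In 7 cells (4.27%) both groups were on and in 21 (12.8%) neither. Cells at the ends of the range were frequent, since 44 had all 5 *tubb5* group genes and no *MSI2* group gene on, 11 had all 4 *MSI2* group genes and no *tubb5* group gene on, and 14 had all 4 with 1 of the other. The *tubb5* kind made up 22 of 27, 9 of 28, 23 of 28, 10 of 28, 13 of 26 and 6 of 27 cells of fish 1 to 6, and the *MSI2* kind 2, 13, 2, 16, 6 and 14. Fish 1, 3 and 5 thus held more of the first kind than of the second, and fish 2, 4 and 6 more of the second. These kinds were defined on the same cells, so what follows on them is description.

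Ribosomal protein genes moved with the kinds. They took a median of 11.8%, 9.81%, 10.5%, 8.22%, 11.4% and 3.72% of reads in cells of the *tubb5* kind of fish 1 to 6, and of 3.56%, 2.48%, 3.74%, 2.81%, 3.03% and 1.33% in the *MSI2* kind. In every fish the first kind was higher, and fish 6 was the lowest in both. At 20000 reads a cell, the median ribosomal protein gene was read in 96.4% of cells of the *tubb5* kind, with 61 genes at 95% or more, and in 50.9% of the *MSI2* kind. In the RG gate it was read in 93.2% of cells, with 25 genes at 95% or more. Depth moved with the kinds too. Cells of the *tubb5* kind held a median of 343412 reads and those of the *MSI2* kind 197164, and the number of *tubb5* group genes on had a Spearman rho of 0.45 with reads over 164 cells and of -0.01, 0.83, 0.15, 0.64, 0.25 and 0.11 within fish 1 to 6. With the share of reads on ribosomal protein genes, the rho was 0.74 and 0.66, 0.49, 0.65, 0.62, 0.78 and 0.29. After thinning, both groups formed again with the same genes, and the part that depth had in the rest was not tested.

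**Figure D5:**
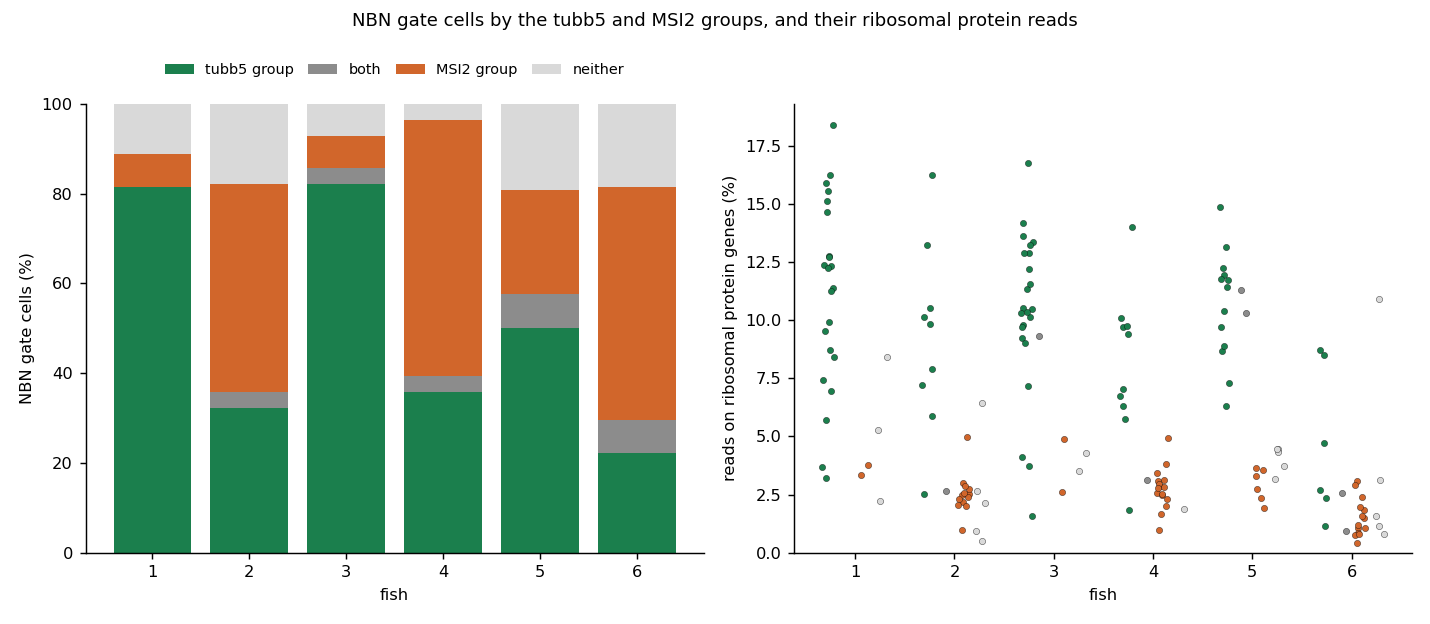
Left, share of NBN gate cells of each fish in the *tubb5* kind, the *MSI2* kind, both or neither. Right, share of reads on ribosomal protein genes per cell by fish, with the same colours. The *tubb5* kind makes up 22 of 27 cells of fish 1 and 6 of 27 of fish 6, and in each fish its cells lie mostly above those of the *MSI2* kind.

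Of 30 listed neurogenic transcription factors that were on in at least 5 cells, 22 were more often on in the *tubb5* kind and 8 in the *MSI2* kind. The lists are tallied here and below without the genes that define the kinds. Cells of the *tubb5* kind showed more genes at equal depth, with a median of 1327 after thinning against 1000 in the *MSI2* kind. The share over all genes was not counted, so nothing is read about a list from its tally. *NEUROD1* was on in 47 of its 83 cells and in none of the 53 of the *MSI2* kind. *BHLHE22*, a repressor of projection neurons, was on in 38 and 2, the zinc finger factor *PRDM8* in 36 and 1, and the copies of *NEUROD6* in 33 and 2 and in 34 and 2. *NEUROD6* (ENSDARG00000040008) and *BHLHE22* were also the most joined pair of factors (both on in 33 cells, phi 0.61). *INSM1*, a factor of the transition from progenitor to neuron, was on in 20 and 4 cells for its first copy and in 21 and 2 for its second, *nhlh2* in 27 and 1, and *SOX11* in 24 and 4. *SOX4* (ENSDARG00000004588), a pan-neuronal factor of young neurons, was less divided, with 66 and 19 cells. Its second copy, ENSDARG00000098834, was on in 9 cells of the *tubb5* kind and none of the *MSI2* kind. Among those that went the other way were *ID4*, an inhibitor of bHLH factors, with 9 and 19 cells, *tbr1a* with 3 and 11 and *BCL11A* with 6 and 11.

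Of 16 listed regional factors, 12 were more often on in the *tubb5* kind and 4 in the *MSI2* kind. *emx3*, a factor of the pallium, was on in 22 cells of the *tubb5* kind and none of the *MSI2* kind. *EBF3* helped to define the *MSI2* kind and is not counted here. *UNCX*, a homeobox factor of the diencephalon and other regions, was on in 12 and 23 cells for ENSDARG00000037760 and in 4 and 16 for ENSDARG00000102976, and *lhx5* in 3 and 10. *TBR1* was on in cells of both kinds, but in a larger share of the *MSI2* kind. It was on in 41 of 83 cells of the *tubb5* kind (49.4%) and 40 of 53 of the *MSI2* kind (75.5%). It was also on in all 7 cells with both groups on, with a phi of -0.0040 to *tubb5* and of 0.26 to *MSI2*. It was read in 5 RG cells, and stood at 561, 994 and 1613 CPM against 0, 0.519 and 41.0 in the RG gate.

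Listed genes of the synaptic vesicle were more often on in the *MSI2* kind, for 19 of 24 members, and 5 went the other way. For oxidative phosphorylation, 19 of 29 were more often on in the *MSI2* kind and 10 in the *tubb5* kind. Pan-neuronal genes (22 of 31, with 9 the other way) and genes of axon guidance and adhesion (20 of 27, with 7) were more often on in the *tubb5* kind. The share over all genes was not counted, so nothing is read about a list from these tallies. Ion channel genes were split evenly (11 and 11), as were glutamatergic genes (10 and 10). The inward rectifier channel *kcnj19a* was on in 45 of 53 cells of the *MSI2* kind and 3 of 83 of the *tubb5* kind, and *ATP1B1* in 40 and 10. *SNAP25* (ENSDARG00000020609) was on in 47 of 53 cells (88.7%) and 48 of 83 cells (57.8%). *GRIN1* (ENSDARG00000027828), a subunit of the NMDA receptor, was on in 31 and 17 cells, and *eno2* in 32 and 27. Others went against them, among them the synaptotagmin *SYT4*, on in 18 cells of the *MSI2* and 66 of the *tubb5* kind, the sodium channel subunit *SCN3B* in 1 and 21 and the calcium channel subunit *cacnb4b* in 12 and 36. *CARTPT* (ENSDARG00000045832), a neuropeptide precursor, was on in 16 cells, all of the *MSI2* kind and none of fish 1 or 3. Genes of the cytoskeleton and of outgrowth were more often on in the *tubb5* kind, for 31 of 33 members, with *tubb2b* on in 18 and 78 cells and the actin-bundling *FSCN1* in 15 and 71. *ELAVL3* and *STMN4* were on in most cells of both kinds, with *ELAVL3* on in 49 of 53 and 83 of 83 and *STMN4* (ENSDARG00000030106) in 40 and 69.

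The 21 cells of neither kind were a mixed remainder. They showed the most genes at equal depth, with a median of 1693 after thinning against 1327 and 1000 in the *tubb5* and *MSI2* kinds. *chga*, a protein of secretory granules, was on in 16 of the 21, beside 21 of 83 and 13 of 53. *NRGN*, a calmodulin-binding protein of mature neurons, was on in 11, beside 18 and 3. *SNAP25* was on in 19, a share close to that in the *MSI2* kind, and *ELAVL3* in 18. A gene of *olig1*, *OLIG2* and *SOX10*, factors of the oligodendrocyte lineage, was on in 7 of these 21 cells, beside 3 of the *tubb5* and 1 of the *MSI2* kind, 11 in all.

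The other groups joined genes of the ribosome and of the stress response. 5 groups held ribosomal protein genes, among them 1 with *RPL21*, *RPL18* and *RPS26*, 1 with *RPL28*, *rplp2l* and the ribosome-bound scaffold *RACK1*, 1 with *RPL12* and *RPS23*, 1 with *RPS15A*, *RPS4Y2* and *RPL9*, and 1 with *RPL17*, *RPL35A* and *si:ch211-288g17.3*. Over all 1275 pairs of the 51 bimodal ribosomal protein genes, phi had a median of 0.39 (0.08 to 0.62), and its highest value was that of *RPS21* and *RPS18*, both on in 118 cells. The last group held *JUN*, an immediate early factor, the heat shock co-chaperone *dnajb1b* and the adhesion receptor *adgre10*, on in 94, 102 and 96 cells. *dnajb1b* and *adgre10* had the highest phi of all pairs (0.90, both on in 95 cells), but the genes overlap in the annotation at hand, so that reads of 1 may be counted for the other. *JUN* was on in 69 of 83 cells of the *tubb5* kind and in 17 of 53 of the *MSI2* kind. It did not differ beyond its spread between gates, at 463 to 2908 CPM in NBN and 1335 to 3294 CPM in RG sums (log2 fold change 0.14, SE 0.39, adjusted p = 0.926), nor did *dnajb1b* (-0.20, adjusted p = 0.902).

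Transmitter genes were on, at 100 CPM or more, in a minority of cells. *SLC17A6* or *SLC17A7*, vesicular glutamate transporters, were on in 52 cells (31.7%), and *GAD1* or *GAD2*, which make GABA, in 15 (9.15%), with 5 cells in which both kinds were on. The share depended on the on level. When any read was counted, 71 cells had only a transporter gene, 14 only a *GAD* gene, 8 had both and 71 had neither. A *DLX* gene, of the ventral forebrain, was on in 11 cells, of which 9 had *GAD1* or *GAD2* on. *NEUROD1*, *NEUROD2* or *NEUROD6* was on in 73 cells. No cell had 1 of these *NEUROD* genes and a *DLX* gene on together, and 12 cells had 1 of them and *EBF3* on. The *GAD* and *DLX* genes were on in 9 and 9 cells of the *tubb5* kind and in 4 and 0 of the *MSI2* kind.

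Against the RG gate, 559 of 8393 genes tested were higher and 152 lower in the NBN gate (edgeR, adjusted p under 0.05, 6 against 6 sums). The median log2 fold change of all genes tested was 0.69, and 0.48 with the RLE scaling of edgeR, under which *MSI2* missed the threshold (adjusted p = 0.0835). This median was 2.06 with the fish as a block, 0.21 with DESeq2 and 0.25 with the deposited fish label, so it moved with the model and the scaling. More genes were called higher than lower in each of these. With cells thinned to 20000 reads, 468 genes were higher and 239 lower. In these sums of cells, fewer cells with a gene and less RNA per cell cannot be told apart. The share of cells with a read is compared below for named genes. 210 of the 559 had no read in any RG sum. Beside *eno2*, *RTN4R* and the second *STMN4*, the 10 with the largest change included *CAMK1G*, a calmodulin-dependent kinase (read in 41 NBN cells, at least 1501-fold), *chga* (64 cells, at least 1781-fold), the G protein subunit *GNG13* (52 cells, at least 1748-fold), the mitochondrial creatine kinase *CKMT1B* (59 cells, at least 1318-fold), the complexin *cplx2a* (48 cells, at least 1171-fold) and *si:ch211-10a23.2* (58 cells, at least 1539-fold). The 10 genes were read in 41 to 83 of the 164 cells. The largest falls were those of *cyp2p6*, *sb:cb81*, *SLC16A4*, *LIX1*, *plekhg4*, *s100v2*, *her8.2*, *lgals2a*, *tnfrsfa* and *zgc:153704*, which were read in 1 to 3 NBN cells and fell by 10.7 to 8.24 on the log2 scale. They were read in 10 (*cyp2p6*) to 53 (*LIX1*) of the 73 RG cells. Their level in the NBN gate was highest in fish 6 for all but *cyp2p6*.

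Listed genes of neuronal function were described by counts, beside 6.66% of all genes higher. Of pan-neuronal genes, 15 of 31 tested were higher and none lower, with *STMN2* (ENSDARG00000033234), a stathmin of growth cones, at 1130 to 1620 CPM against 0 to 0.565 (log2 fold change 12.4, SE 0.81, adjusted p = 1.27e-07). Of cytoskeletal and outgrowth genes, 19 of 36 were higher, among them *maptb*, a tau copy, at 978 to 1416 against 11.4 to 158 CPM (4.13, SE 0.56, adjusted p = 9.25e-05) and *basp1*, a protein of growth cones, at 923 to 2096 against 35.6 to 339 CPM (3.48, SE 0.49, adjusted p = 0.000148). Of genes of the synaptic vesicle, 15 of 23 were higher, with *SNAP25* (ENSDARG00000020609) at 545 to 1708 against 0 to 1.13 CPM (adjusted p = 3.15e-06). Of glutamatergic genes, 12 of 17 were higher, with *GRIA2* (ENSDARG00000052765), an AMPA receptor subunit, at 341 to 1297 against 0 to 32.9 CPM (7.10, SE 1.53, adjusted p = 0.00457). Of ion channel genes, 9 of 17 were higher and of GABAergic and peptidergic genes 5 of 8. None was lower in any of these lists.

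Lists of development and metabolism moved less, and stand beside 6.66% of all genes higher and 1.81% lower. Of neurogenic transcription factors, 5 of 28 were higher and none lower, and 13 with the fish as a block. *HMGB3* (ENSDARG00000056725), a chromatin protein, stood at 1631 to 2941 against 248 to 874 CPM (2.39, SE 0.39, adjusted p = 0.000638), and *BHLHE22* at 148 to 722 against 0 to 0.183 CPM (adjusted p = 2.50e-06). *NEUROD1* did not overlap between gates at 106 to 937 against 0 to 76.8 CPM but missed the threshold (4.90, SE 1.67, adjusted p = 0.0887, 0.000972 with the block and 0.000153 without fish 6). Of genes of axon guidance and adhesion, 3 of 29 were higher and 6 with the block. Of oxidative phosphorylation, 2 of 29 were higher, a share near that of all genes, with none without fish 1, 4 or 5. Of regional factors, 4 of 14 were higher. Of the Notch pathway, 4 of 15 were lower, among them *her4.1* (-6.67, SE 1.32, adjusted p = 0.00288), whose promoter is part of the sort. Of immediate early and heat shock genes, 1 of 27 was higher and 5 were lower, with 2 called in all without fish 2 and without fish 4. *JUNB* (ENSDARG00000104773) was among those lower, with 179 to 913 CPM against 1908 to 4648 (-2.40, SE 0.43, adjusted p = 0.00126).

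The share of cells with a read was compared for 73 named genes. No difference passed after adjustment (lowest adjusted p = 0.0760, exact two-sided permutation test over 6 fish), since 0.03125 is the smallest p that 6 fish allow, and 30 genes reached it, 16 higher and 14 lower in the NBN gate. The 73 genes include those named for a change alike in 6 of 6 fish and those named for their share in the NBN gate, so this count follows from the choice of genes. For the same reason, the shares that follow are description. *ELAVL3*, whose promoter drives the GFP of the sort, was read in 95.8% ± 4.78 of NBN and 7.76% ± 9.86 of RG cells (SD, n = 6 fish, higher in 6 of 6). *tubb5* was read in 59.2% ± 18.0 against 22.9% ± 9.78 and *EBF3* in 48.7% ± 19.5 against 10.3% ± 7.51, each higher in 6 of 6 fish. Both genes were named through the rule for bimodal genes, which looks at NBN cells alone. After thinning, *EBF3* was read in 44.5% of NBN and 1.45% of RG cells. *RPL12* went the other way, with 69.6% ± 21.5 of NBN and 89.8% ± 10.4 of RG cells and a lower share in 6 of 6 fish.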

How the data were processed

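Single cells were sequenced by SMART-seq2 as single-end reads on a NextSeq 500. Per the study's methods and processing notes, the authors checked reads with FastQC, aligned them to GRCz10 with GSNAP (2017-08-15) and counted uniquely aligned reads per Ensembl gene with featureCounts (1.5.3). The deposited values were raw counts per gene and cell, with no molecular identifiers. Members and gene lists were chosen with earlier results of these data known. Fish were taken from the cell names, with the cells of batch bfx811 as fish 6. The deposited fish label has 4 values, disagrees with the cell names and was used as an alternative. Nothing else tells the cells of a fish apart, and p-values measure the spread between these fish.

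CPM was reads of a gene over all gene reads of a cell. Counts were summed per fish and gate (3228221 to 11933343 reads in the NBN gate, 1539845 to 5473055 in the RG gate) and tested with edgeR's quasi-likelihood test (4.0.16, R 4.3.3, TMM, filterByExpr, Benjamini-Hochberg, adjusted p under 0.05), without a block. The SE of a log2 fold change was derived from the test, as its absolute value divided by the square root of the F value, and was not estimated separately. A floor was 3 counts over a gate. Both gates of a fish came from the same animal, which gives the pairing. Deviations of same-fish sums correlated at -0.029 to 0.090 over 2000 genes. Shares and cell measures were compared by exact sign-flip permutation over 6 fish (scipy 1.17.1). Alternatives were DESeq2 (1.42.0), limma (3.58.1) on log2(mean CPM + 1), RLE scaling, no filter, the fish block, thinning to 20000 reads, plate labels, batch bfx855 alone and each fish left out. The tests were tested on simulated data. Named genes were the markers, the 10 shared genes of highest level outside ribosomal and mitochondrial genes, up to 6 genes per group, 5 opposite pairs, the 10 largest changes each way among genes of at least 50 CPM that moved alike in 6 of 6 fish, and list members by role. A spike-in filter and doublet removal were not applied. No sequences were used here. A few genes that the rule would name are not reported here.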

Additional observations from a re-analysis of the deposited data

Results flagged for a closer look

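Of 60 group values tested for a fish apart from the others, 5 passed Dixon's criterion, and chance passes about 1 in 20. In the NBN gate, fish 6 stood highest for *malat1* (85935 CPM, next fish 32622), for a gene without a symbol that every cell expressed (45209 CPM, next 21578) and for *adgre10* (1963 CPM, next 889), and lowest for *zgc:158463* (298 CPM, next 1497). Fish 6 is also the whole of batch bfx811. *UBB* was highest in fish 2 (4071 CPM, next 3180).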

How the results depend on the processing

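The count of genes called between gates was 711. It was 2645 with DESeq2, 1232 without the filter on low counts and 2411 with limma on mean CPM, and 687 to 877 with 1 fish left out. With the fish as a block, which uses the pairing of gates within a fish, it was 1035, and with the deposited fish label in place of the numbers in the names 1063. Shared genes numbered 24, and 15 after thinning, 48 at 90% of cells, 5 at 99% and 18 to 31 without 1 fish. Bimodal genes numbered 665, and 276 with at most 5% of cells between, 1071 and 95 with a median of 250 and 1000 CPM, and 593 to 706 without 1 fish. Groups numbered 8, and 16 at a phi of 0.4, 1 at 0.6, 5 with Spearman correlation, 5 with phi averaged within fish (chosen after seeing the data) and 6 to 10 without 1 fish. No share test passed under any alternative. With 1 fish left out, or batch bfx855 alone, none could pass, since 0.0625 is the smallest p that the exact permutation test allows with 5 fish. Nothing is read from those alternatives. The difference in genes per cell, 69.3, ran from -54.6 (without fish 3) to 170.9 with 1 fish left out. The causes were not tested. Of 501 values for 36 single genes, 485 kept direction and call, 8 gained and 8 lost the call. A gene without a read in a cell may have been missed at that cell's depth, and 6 fish limit exact tests to 0.03125.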
